A study of Mus musculus with 12 samples.

Results

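Dppa2, Dppa3, Dppa4 and Dppa5a are 4 mouse genes named for a shared habit, expression in pluripotent and early embryonic cells (developmental pluripotency associated). They were picked by gene symbol from the 22619 symbols of the deposited tables, and the choice was made with their measured levels in the study's groups known. Their values across those groups therefore describe them and carry no test. Each of the 4 was listed on 1 row per library.

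Despite the common name these genes do different work. Dppa2 and Dppa4 encode related DNA-binding proteins with a SAP domain that act as a pair on chromatin, hold the promoters of developmental genes in a state marked by both COMPASS and Polycomb complexes, and act upstream of the transcripts of the two-cell embryo. Dppa3 (Stella, PGC7) is loaded into the egg as a maternal factor. It shields maternal DNA from oxidation by TET3 and keeps UHRF1, the partner of the maintenance DNA methyltransferase DNMT1, away from chromatin. Dppa5a (Esg1, Ecat2) encodes a KH-domain RNA-binding protein that is abundant in embryonic stem (ES) cells, where it binds NANOG, and in oocytes.

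The study set mouse embryos and ES cells with and without Dcaf11, whose protein picks targets for a cullin ubiquitin ligase, side by side in 12 Smart-seq2 libraries, made from polyadenylated RNA. Embryos were C57BL/6. There were 2 libraries from wild type (control embryo), 3 from the Dcaf11 knock out genotype (KO embryo) and 3 more of that genotype whose titles add the word arrest (KO arrest). ES cells were 129Sv, with 2 wild-type libraries (control ESC) and 2 with the Dcaf11 knock down genotype (KD ESC). The labels name no embryonic stage, sex, number of cells, deleted part of Dcaf11 or agent of the knock down. They also do not say whether replicates are different embryos or cultures, so a p-value here reflects library-to-library spread that could be technical. Strain and cell source differ together between embryos and ES cells and cannot be told apart. In libraries made from lysed embryos, fewer cells of a type and less RNA per cell cannot be told apart either.

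Levels were deposited as FPKM, read fragments scaled to gene length and to the library's reads, which allows levels of different genes to be compared. Depth is known only relative to other libraries, from coverage at 1 FPKM, which ran from 0.373 to 2.01. It was 2.01 and 1.22 in control embryo, 0.585, 0.988 and 1.32 in KO embryo and 0.373, 0.523 and 0.659 in KO arrest. Every KO arrest library was thus shallower than both control embryos. Control embryo 1 stood apart, with 6573 genes at 1 FPKM or more against 8535 to 12061 in the others, although it was the deepest library. Dcaf11 itself did not separate knock out from control embryos (0.184 to 6.02 against 2.82 and 14.3 FPKM, over the whole gene), while in ES cells it was at 1.69 and 1.83 FPKM with the knock down and at 6.48 and 4.52 without. Fold changes below are differences of group means of log2(FPKM + 1) with their standard error (SE) from limma, a linear model fitted across all genes. That scale understates the change of low genes. Genes other than the 4 were called higher or lower at a Benjamini-Hochberg adjusted p under 0.05. The gene and marker lists below were also chosen with earlier results of these data known. Their counts and p-values describe the lists and are not a test of them. Of all genes tested, 4.86% were called higher and 1.50% lower in KO embryo, and 16.4% and 8.87% in KO arrest, against control embryo. The shares were 4.93% and 3.65% in KO arrest against KO embryo, 2.59% and 3.64% in KD ESC and 12.6% and 40.8% in control embryo against control ESC.

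Dppa2 lies on chromosome 16 of the mm9 build, from 48310387 to 48319626 on the plus strand, and Dppa4 just before it on the same strand, from 48283848 to 48294405, with 15982 bases between the gene models. The FPKM of Dppa2 was 48.2 and 47.5 in control embryo, 263, 205 and 276 in KO embryo and 599.7, 725 and 761 in KO arrest. The control ESC libraries had 33.1 and 30.8 FPKM and the KD ESC libraries 20.8 and 22.0 FPKM. The 5 groups thus lay in 5 separate bands, with KO arrest highest and KD ESC lowest, and no library of a group reached the range of the next. By group the mean level was 695 ± 84.5 FPKM (SD, n = 3) in KO arrest, 248 ± 38.0 (SD, n = 3) in KO embryo, 47.8 ± 0.513 (SD, n = 2) in control embryo, 32.0 ± 1.62 (SD, n = 2) in control ESC and 21.4 ± 0.846 (SD, n = 2) in KD ESC. The smallest steps in this order were from control embryo to control ESC and from there to KD ESC, each of 1.50-fold.

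**Figure D1:**
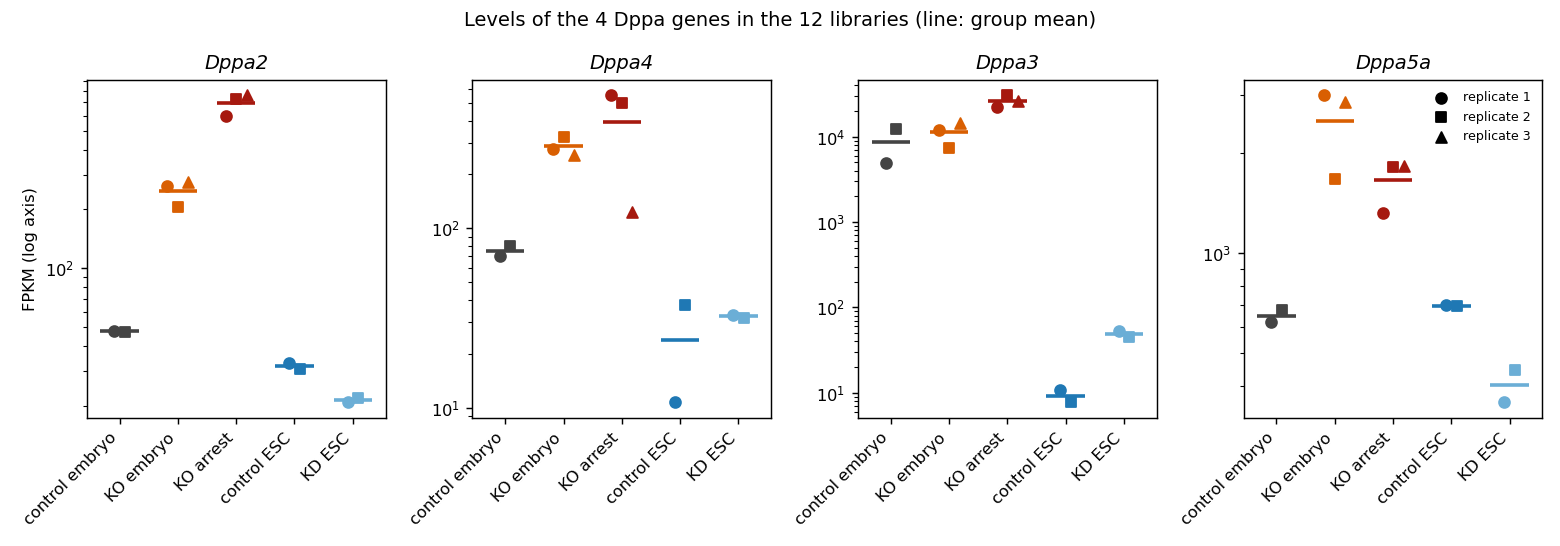
FPKM of the 4 Dppa genes in each of the 12 libraries on log axes, with a separate scale for each gene; a marker is 1 library, its shape the replicate number, and the line the group mean. Dppa2 forms 5 separate bands, Dppa3 spans from 7.69 to 30499 FPKM, and Dppa4 has 1 low library in KO arrest (124 FPKM) and 1 in control ESC (10.7 FPKM).

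Dppa4, the partner of Dppa2, had 70.1 and 80.1 FPKM in control embryo, 276, 325 and 258 in KO embryo and 554, 498 and 124 in KO arrest. In ES cells it was at 10.7 and 37.2 FPKM in the controls and at 33.0 and 31.5 FPKM with the knock down. All 6 knock out embryo libraries were above both control embryos, but KO arrest 3, with 124 FPKM, lay below every KO embryo library, so that KO arrest and KO embryo overlapped. Control ESC 1, with 10.7 FPKM, was likewise low next to the other 3 ES cell libraries, and control ESC and KD ESC overlapped. The group means were 392 ± 234 FPKM (SD, n = 3) in KO arrest, 287 ± 34.7 (SD, n = 3) in KO embryo, 75.1 ± 7.06 (SD, n = 2) in control embryo, 32.3 ± 1.07 (SD, n = 2) in KD ESC and 23.9 ± 18.7 (SD, n = 2) in control ESC. Only the steps from KO embryo to control embryo and from there to KD ESC separated neighbouring groups in that order.

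The level of Dppa2 relative to Dppa4 within a library does not depend on how libraries are scaled. It was 0.593 to 0.688 in control embryo, 0.629 to 1.07 in KO embryo and 1.08 to 6.14 in KO arrest. Dppa4 was thus the higher of the pair in the control embryos and Dppa2 in every KO arrest library. The ratio of 6.14 belonged to KO arrest 3, where Dppa2 was at its highest level of any library and Dppa4 was low. In ES cells the ratio was 0.828 to 3.10 in the controls, the upper value from control ESC 1, and 0.629 to 0.697 with the knock down. In these 2 libraries Dppa4 stood apart from the rest of its group, and Dppa2 did not.

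Dppa3 lies on chromosome 6 of mm9, from 122576442 to 122580289 on the plus strand. Control embryos had 4949 and 12398 FPKM of it, KO embryos 12074, 7278 and 14555, and KO arrest 21963, 30499 and 25965. The control ESC libraries had 10.7 and 7.69 FPKM and the KD ESC libraries 52.3 and 45.2 FPKM. Every KO arrest library was above every other library, KO embryo and control embryo overlapped, and both KD ESC libraries were above both control ESC libraries. The mean levels were 26143 ± 4271 FPKM (SD, n = 3) in KO arrest, 11302 ± 3699 (SD, n = 3) in KO embryo, 8673 ± 5267 (SD, n = 2) in control embryo, 48.8 ± 5.05 (SD, n = 2) in KD ESC and 9.21 ± 2.14 (SD, n = 2) in control ESC. The step from control embryo down to KD ESC was 178-fold.

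No symbol had a higher FPKM than Dppa3 in 5 of the 8 embryo libraries, which were KO embryo 1 and 3 and all 3 KO arrest libraries. Its rank was 2 in KO embryo 2, 3 in control embryo 2 and 5 in control embryo 1. On the TPM scale, in which all values of a library share the same sum, Dppa3 took 1.45% and 3.13% of the total in the control embryos. Its share was 3.06%, 2.01% and 3.68% in KO embryo and 4.53%, 5.81% and 4.63% in KO arrest. The order of the groups was the same on this scale, again with overlap between control embryo and KO embryo. In ES cells it ranked 5369 and 6572 in the controls and 1046 and 1274 with the knock down.

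**Figure D2:**
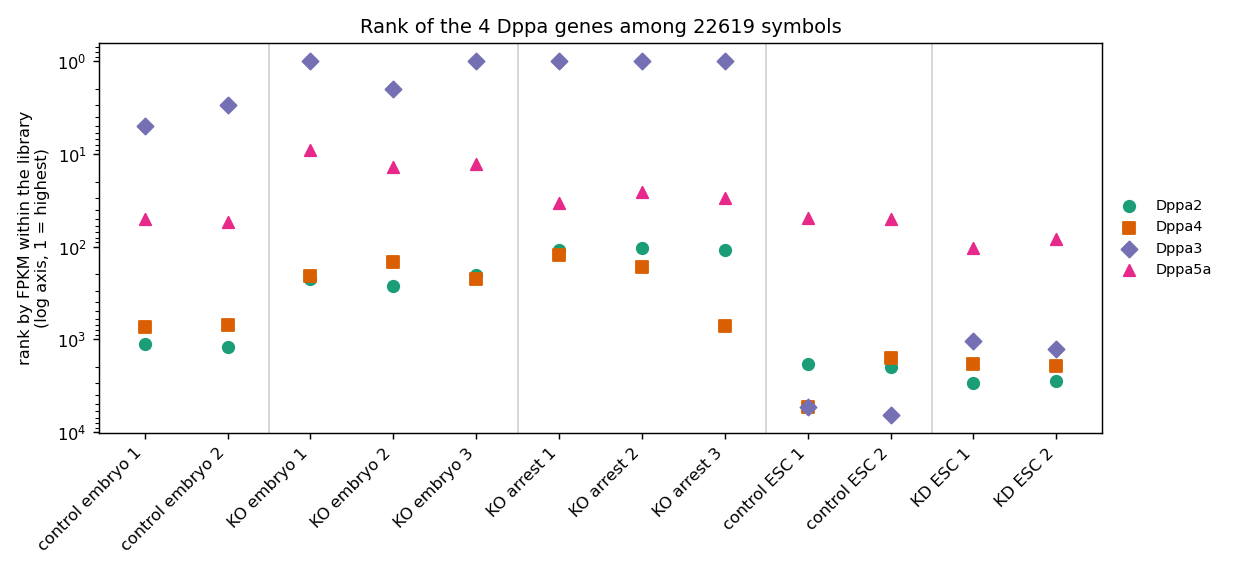
Rank of each Dppa gene by FPKM among 22619 symbols in each library (log axis, 1 is the highest level); grey lines separate the groups. Dppa3 is within the first 5 in every embryo library and between 1046 and 6572 in ES cells, while Dppa5a stays between 9 and 105 throughout.

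Dppa5a lies on chromosome 9 of mm9, from 78214861 to 78216006 on the minus strand, and at 1146 bases has the shortest gene model of the 4. Control embryos had 620.0 and 676 FPKM of it, KO embryos 2986, 1678 and 2853, and KO arrest 1322, 1818 and 1833. The control ESC libraries had 698 and 694 FPKM and the KD ESC libraries 356 and 446 FPKM. Of the 4 genes it had the smallest step between embryo and ES cell controls, 1.07-fold, and it alone had its highest mean in KO embryo rather than KO arrest. KO embryo and KO arrest overlapped, both were above both control embryos, and KD ESC was below every other library. The group means ran from 2506 ± 719.7 FPKM (SD, n = 3) in KO embryo through 1658 ± 291 (SD, n = 3) in KO arrest, 696 ± 2.83 (SD, n = 2) in control ESC and 648 ± 39.6 (SD, n = 2) in control embryo to 401 ± 63.1 (SD, n = 2) in KD ESC. By rank it was between 9 and 55 in every embryo library, 49 and 50 in the control ESC libraries and 105 and 83 in the KD ESC libraries.

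Ratios between members show where they parted. Dppa5a relative to Dppa2 fell in separate bands in all 5 groups, at 12.9 to 14.2 in control embryo, 8.20 to 11.3 in KO embryo and 2.20 to 2.51 in KO arrest. In ES cells it was 21.1 to 22.5 in the controls and 17.2 to 20.3 with the knock down. Both genes were above the control embryos in every knock out library, and the step was larger for Dppa2. Dppa3 relative to Dppa5a was 7.98 to 18.3 in control embryo, 4.04 to 5.10 in KO embryo and 14.2 to 16.8 in KO arrest. The KO embryo libraries lay below both other embryo groups in this ratio, and those 2 groups overlapped. With the knock down the ratio was 0.101 to 0.147, against 0.0111 to 0.0154 in control ESC.

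The comparison of KO embryo with control embryo asks what the Dcaf11 genotype goes with in embryos whose titles do not mention arrest. Dppa2 was 5.18-fold higher by the means, a log2 fold change of 2.34 ± 0.33 (SE). Dppa5a was 3.87-fold higher (1.90 ± 0.35) and Dppa4 was 3.82-fold higher (1.92 ± 0.57). Dppa3 overlapped between the groups, with a log2 fold change of 0.47 ± 0.43 that turned to −0.19 without control embryo 1 and to −0.23 with libraries scaled by the median of ratios, and was 1.13 without control embryo 2. For 3 of the 4 genes all KO embryo libraries were above both controls, as were 24.2% of the 11795 genes tested. Over those genes the median log2 fold change was 0.31, and relative to it the 4 genes stood at 2.03 (Dppa2), 1.60 (Dppa4), 0.16 (Dppa3) and 1.59 (Dppa5a). Because these contrasts took part in the choice of the genes, nothing is read from that count.

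KO arrest was compared with the same 2 control embryo libraries, so the 2 comparisons share their controls. Dppa2 was 14.5-fold higher, with a log2 fold change of 3.83 ± 0.33 (SE), and Dppa4 was 5.22-fold higher (2.10 ± 0.57, or 2.79 without the low library KO arrest 3). Dppa3 was 3.01-fold higher (1.73 ± 0.43, 1.06 without control embryo 1 and 2.39 without control embryo 2) and Dppa5a was 2.56-fold higher (1.34 ± 0.35). All 4 genes were above both controls in all 3 libraries, as were 31.3% of genes tested. Relative to the median of all genes, 0.45, the values were 3.38 for Dppa2, 1.65 for Dppa4, 1.28 for Dppa3 and 0.89 for Dppa5a.

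Against KO embryo, which shares its genotype, KO arrest differed in the title alone as far as the labels go. Dppa2 was 2.80-fold higher (log2 fold change 1.49 ± 0.29, SE) and Dppa3 was 2.31-fold higher (1.26 ± 0.39), each with all 3 KO arrest above all 3 KO embryo libraries, as were 19.4% of genes tested. Dppa4 and Dppa5a overlapped. The log2 fold change of Dppa4 was 0.19 ± 0.51 and turned to −0.26 with TPM, to −0.20 without KO arrest 1 and to −0.12 without KO arrest 2, and was 0.88 without KO arrest 3. That of Dppa5a was −0.57 ± 0.31. The median of all genes was 0.07.

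**Figure D3:**
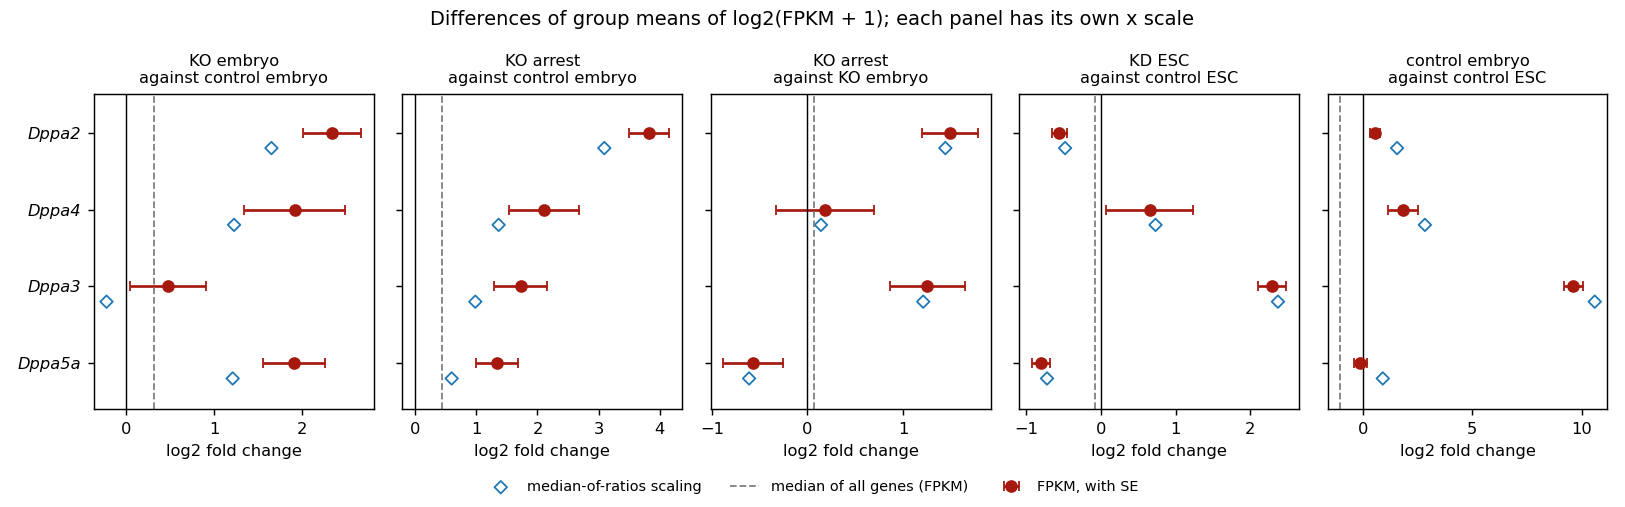
Log2 fold change of each Dppa gene in the 5 comparisons (red, with SE; x scale differs between panels), the same after median-of-ratios scaling (open blue) and the median of all genes tested (dashed). After rescaling all 4 genes lie lower in both comparisons with control embryo, where Dppa3 in KO embryo goes from 0.47 to −0.23, and higher in the comparison of control embryo with control ESC, where Dppa5a goes from −0.10 to 0.92.

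In ES cells the comparison of KD ESC with control ESC set 2 libraries against 2. Dppa3 was 5.30-fold higher with the knock down (log2 fold change 2.30 ± 0.19, SE), above both controls in both libraries, as were 25.3% of the 12264 genes tested. Dppa5a was 1.74-fold lower (−0.80 ± 0.12) and Dppa2 was 1.50-fold lower (−0.56 ± 0.10), both genes in both libraries, as were 37.1% of genes. Dppa4 overlapped, at 0.65 ± 0.58, and turned to −0.20 without control ESC 1. The median of all genes was −0.09. Dppa3 was at the 99.7th percentile of all fold changes and Dppa5a at the 7.59th. The members thus did not go one way in ES cells as they did in KO arrest.

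Control embryo and control ESC differ in strain and source as well as in cell type. Dppa3 was 942-fold higher in the embryos (log2 fold change 9.60 ± 0.43, SE), at the 99.9th percentile of all genes. Dppa4 was 3.14-fold higher (1.85 ± 0.70, 0.99 without control ESC 1 and 2.70 without control ESC 2) and Dppa2 was 1.50-fold higher (0.57 ± 0.24). These 3 genes were above both ES cell controls in both embryo controls, as were 19.2% of the 14447 genes tested. Dppa5a was lower in both embryo libraries, as were 55.2% of genes, but its log2 fold change of −0.10 was smaller than its SE of 0.29 and turned to 0.92 with median-of-ratios scaling. The median of all genes was −1.01 here, and relative to it the 4 genes stood at 1.58 (Dppa2), 2.86 (Dppa4), 10.61 (Dppa3) and 0.91 (Dppa5a).

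Two-cell genes known to depend on Dppa2 and Dppa4, such as the Zscan4 family of SCAN zinc-finger genes, the Usp17l deubiquitinases and the Tdpoz genes, were followed as a list of 30, of which 27 were in the tables. While both members were higher in the KO embryos, 8 of 24 tested list genes fell there and 0 rose by limma (13 fell and 0 rose at an unadjusted p under 0.05), where 1.50% and 4.86% of all genes fell and rose. The median of the list was −1.50. Zscan4c was at 14.1, 2.28 and 11.0 FPKM against 112 and 262 (−4.36 ± 0.91, limma adjusted p = 0.0238), and Usp17lc at 18.8, 11.1 and 20.9 FPKM against 184 and 99.3 (−2.97 ± 0.52, adjusted p = 0.0137). Dux, a homeobox gene of the list that activates the others and that Dppa2 and Dppa4 are known to act on, did not exceed 1.70 FPKM in any library. The count of 8 list genes was 5 with TPM, 3 with a pseudocount of 0.1, 0 without the filter on low values and 1 with replicate number as a block. It was 1 without any single KO embryo library and 5 without KO arrest 2. Members of these families can share reads.

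In KO arrest, where Dppa2 was highest, 8 list genes fell and 2 rose against control embryo, with 8.87% and 16.4% of all genes, and the median was −0.52. Zscan4a was at 4.41, 2.49 and 1.03 FPKM against 87.3 and 185 (−5.25 ± 0.65, limma adjusted p = 5.2e-04). Against KO embryo 6 of the 24 rose and 1 fell, with 4.93% and 3.65% of all genes and a median of 0.77, while with TPM 3 rose and 2 fell. Arg2, a mitochondrial arginase, rose from 11.4, 24.7 and 13.4 to 97.4, 62.2 and 75.8 FPKM (2.23 ± 0.42, adjusted p = 0.0124) and Tdpoz4 from 9.17, 0 and 11.7 to 89.2, 88.9 and 63.9 FPKM (adjusted p = 0.0298), while the gene that fell was Zscan4a (−2.64 ± 0.58, adjusted p = 0.0221). The list did not move as 1 block. The sum of 7 calls was 2, 3 and 4 without KO embryo 1, 2 and 3 and 3 without KO arrest 2.

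In ES cells, where Dppa2 was lower with the knock down and Dppa4 overlapped, 8 of 16 tested two-cell genes fell and 0 rose by limma (14 and 1 at an unadjusted p under 0.05), with 3.64% and 2.59% of all genes. Zscan4c was at 1.06 and 1.37 FPKM against 11.8 and 11.4 (−2.51 ± 0.16, limma adjusted p = 0.0187), and the median was −1.50. Of the list, 8 of 24 tested genes were lower in KO embryo, where Dppa2 was higher, and 8 of 16 in KD ESC, where Dppa2 was lower. Whether the level of Dppa2 bears on the list was not tested. Without control ESC 1 no gene of this or of the other 5 lists below was called in KD ESC, and without control ESC 2 the only call in the 6 lists was 1 gene of the COMPASS and Polycomb list. Between the controls, 16 of 24 list genes were higher in embryos and 1 in ES cells, against 12.6% and 40.8% of all genes, with a median of 3.68. Zfp352, a zinc-finger gene of the two-cell embryo, was at 148 and 237 FPKM in control embryo and at 0.868 and 0.235 in control ESC (6.95 ± 0.71, adjusted p = 3.6e-05).

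**Figure D4:**
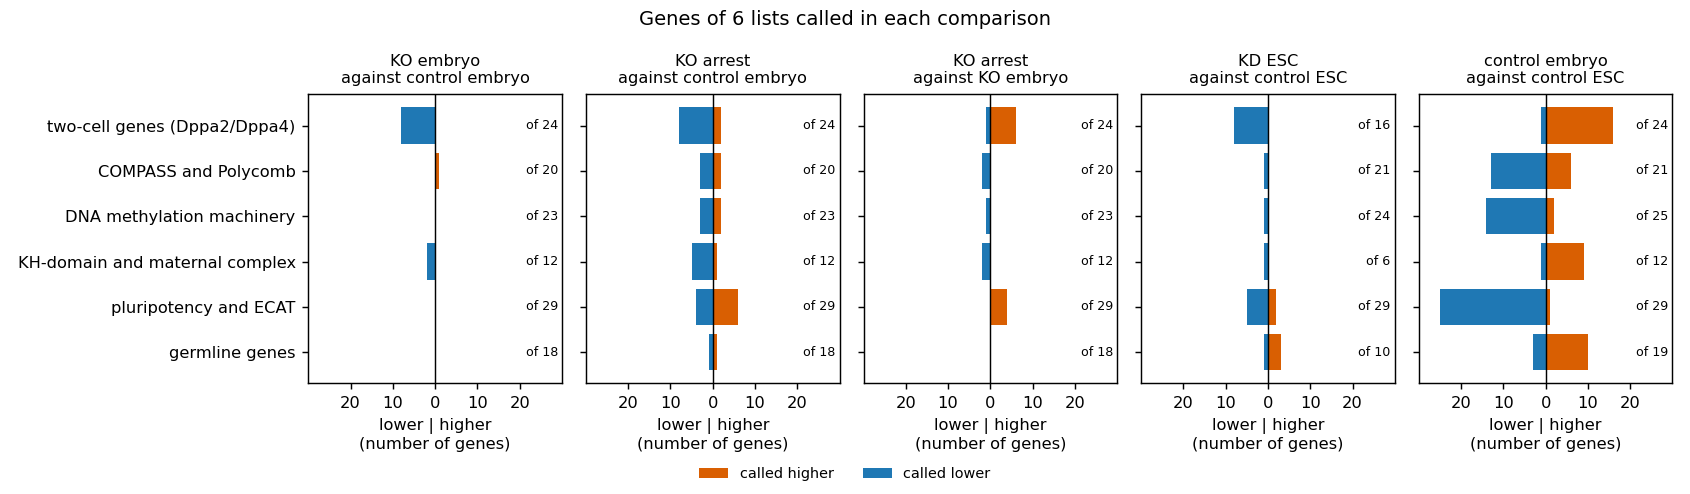
Number of genes called higher (right, orange) and lower (left, blue) at a limma adjusted p under 0.05 in 6 lists and 5 comparisons, with the number tested at the right edge. In KO embryo 8 two-cell genes were lower and 3 of the lists had no call, and in the controls 25 of 29 pluripotency genes were lower in embryos than in ES cells.

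The chromatin complexes that share promoters with Dppa2 and Dppa4, COMPASS, which methylates lysine 4 of histone H3, and Polycomb, were followed as a list. Of it 20 genes were tested in embryos. The list also held Smarca4, a chromatin remodeller of neither complex. Smarca4 was 1 of the 2 genes that rose in KO arrest against control embryo (1.87 ± 0.55, limma adjusted p = 0.0317). It was also among the 13 that were higher in control ESC than in control embryo. In KO embryo Mtf2, an accessory subunit of Polycomb complex PRC2, rose from 44.0 and 20.3 to 90.0, 168 and 116 FPKM (1.97 ± 0.47, limma adjusted p = 0.0364) and none fell. The list median was 0.21. This call was lost without any single KO embryo library, without KO arrest 2 or 3 and with median-of-ratios scaling (median −0.13). It was also lost without the filter on low values, with only the compared groups and with the replicate block. In KO arrest 2 rose and 3 fell against control embryo, and against KO embryo 0 rose and 2 fell (1 and 5 at an unadjusted p under 0.05), with medians of 0.21 and −0.48. Against control embryo this was 10% and 15% of the 20, beside 16.4% and 8.87% of all genes, and against KO embryo 0% and 10%, beside 4.93% and 3.65%. The split against control embryo was 1 higher and 5 lower with TPM (median −0.28) and 0 higher and 6 lower with median-of-ratios scaling (median −0.49). Bmi1, a subunit of Polycomb complex PRC1, fell to 130, 47.1 and 50.7 FPKM from 1425 and 669 (−3.83 ± 0.49, adjusted p = 6.3e-04), and Ezh2, the PRC2 methyltransferase, from 45.3 and 40.5 FPKM to a mean of 15.2 ± 3.68 (SD, n = 3; −1.46 ± 0.47, adjusted p = 0.0438). The 5 calls against control embryo were 1 to 4 with a library left out, fewest without KO arrest 2 or 3 and 2 without KO embryo 1 or 3, and the 2 calls against KO embryo were 1 without KO embryo 2, KO embryo 3 or KO arrest 2. In KD ESC 1 of 21 changed, Wdr5, a core COMPASS subunit, which fell from 145 and 148 to 94.8 and 101 FPKM (−0.58 ± 0.07, adjusted p = 0.0366). The median there was −0.10, and of all genes 2.59% were called higher and 3.64% lower. In the controls 6 were higher in embryos and 13 in ES cells, beside 12.6% and 40.8% of all genes, with a median of −1.94 (8 and 9 with median-of-ratios scaling).

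For Dppa3 the list was built around the DNA methylation and demethylation machinery, 25 genes that include its known counterparts Uhrf1, Dnmt1 and Tet3. It also held genes that neither add nor remove DNA methylation themselves, among them Trim28 and Ipo5, a nuclear import factor. Ipo5 was 1 of the 2 genes that rose in KO arrest against control embryo (1.71 ± 0.50, limma adjusted p = 0.0296). In KO embryo 0 of 23 were called by limma (2 higher and 0 lower at an unadjusted p under 0.05, 3 calls without control embryo 2), with a median of 0.74. In KO arrest, where Dppa3 was highest, 2 rose and 3 fell against control embryo (median 0.45, as for all genes), beside 16.4% and 8.87% of all genes. However, 0 rose and 5 fell both with TPM (median 0.04) and with median-of-ratios scaling (median −0.19). Among those that fell was Zfp57, which guards methylation at imprinted loci, at 30.2, 22.9 and 20.7 FPKM against 96.3 and 186 (−2.42 ± 0.46, limma adjusted p = 0.00442). These 5 calls were 8 without control embryo 2 and 2 without control embryo 1, KO arrest 2 or KO arrest 3. Against KO embryo the 1 call was Gadd45a, a factor linked to DNA repair and demethylation, lower at 6.68, 1.33 and 2.84 FPKM against 31.1, 68.5 and 34.8 (−3.39 ± 0.58, adjusted p = 0.00821, with 4 calls without either control embryo or with TPM and 2 with median-of-ratios scaling).

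Uhrf1 itself was at 2.19 and 14.4 FPKM in control embryo, 10.2, 11.6 and 11.7 in KO embryo and 6.80, 5.64 and 1.61 in KO arrest. Dppa3 was at 4949 FPKM or more in those same libraries, and in control ESC, where Dppa3 was at 10.7 and 7.69 FPKM, Uhrf1 was at 184 and 190 FPKM. In KD ESC, with Dppa3 5.30-fold higher, Uhrf1 was at 158 and 126 FPKM and was not called. Of the other named counterparts, Dnmt1 was at 0.828 and 2.77 FPKM in control embryo and 22.9 and 19.5 in control ESC. Tet3 went the other way, at 8.07 and 19.7 FPKM in control embryo and 2.96 and 3.49 in control ESC. These are RNA levels and do not show where the UHRF1 protein lies. The 1 call of 24 in KD ESC was Dnmt3b, a de novo DNA methyltransferase, which fell from 14.8 and 17.4 to 5.99 and 6.54 FPKM (−1.23 ± 0.14, limma adjusted p = 0.0317). The list median was −0.14, and of all genes 2.59% were called higher and 3.64% lower in KD ESC. In the controls 2 of 25 were higher in embryos and 14 in ES cells, beside 12.6% and 40.8% of all genes, with a median of −1.75. Among the 14 was Tet1 (13.6 and 4.32 against 193 and 191 FPKM, limma adjusted p = 3.7e-05).

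Germline genes that DNA methylation keeps silent in other cells were listed as 20 genes. None of 18 was called by limma in KO embryo (3 higher and 1 lower at an unadjusted p under 0.05, 2 calls without control embryo 2), with a median of −0.50. In KO arrest 1 rose and 1 fell, beside 16.4% and 8.87% of all genes, with a median of −0.25. The calls were 1 in all without any single KO embryo library, KO arrest 2 or KO arrest 3. Hormad1, a meiotic chromosome axis gene, was the one that rose, to 96.2, 53.1 and 61.1 FPKM from 17.4 and 16.5 (1.94 ± 0.46, limma adjusted p = 0.0126), but no gene of the list was called higher with TPM (2 lower) or with median-of-ratios scaling (3 lower). Against KO embryo 0 of 18 were called (1 higher and 2 lower at an unadjusted p under 0.05, 3 and 4 calls without control embryo 1 and 2). The median there was 0.36. In KD ESC, where Dppa3 was higher, 3 of 10 rose and 1 fell, beside 2.59% and 3.64% of all genes, with a median of 0.93. Dazl, an RNA-binding protein of germ cells, rose from 14.1 and 17.3 to 67.3 and 64.3 FPKM (2.01 ± 0.13, adjusted p = 0.0187), Tex19.1 from 26.9 and 22.9 to 53.9 and 56.2 FPKM (1.12 ± 0.11, adjusted p = 0.0306) and Tuba3a, a testis tubulin, from 50.9 and 58.7 to 119 and 115 FPKM. Rpl10l, a testis ribosomal protein gene, fell. Without either control ESC library 0 of these calls remained. In the controls 10 of 19 were higher in embryos and 3 in ES cells, beside 12.6% and 40.8% of all genes, with a median of 1.78.

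Dppa5a belongs to a KH-domain family with Khdc3, Ooep and the Khdc1 genes, several of which make up the subcortical maternal complex of the egg with Nlrp5, Tle6 and Padi6. While Dppa5a was higher in KO embryo, 0 of 12 rose and 2 fell by limma (0 and 7 at an unadjusted p under 0.05), Zbed3, a partner of that complex, and Nlrp9b. Of all genes 4.86% rose and 1.50% fell in KO embryo. The list median was −1.15, and with median-of-ratios scaling 5 fell (median −1.85). The 2 calls were 0 without KO embryo 3 and 1 without any other single KO embryo or KO arrest library. In KO arrest 1 rose and 5 fell against control embryo, beside 16.4% and 8.87% of all genes, with a median of −1.38. Khdc1b was at 200, 155 and 150 FPKM against 1672 and 2659.8 (−3.65 ± 0.33, limma adjusted p = 1.7e-04) and Zbed3 at 103, 75.0 and 70.3 against 1869.5 and 3896 (−5.03 ± 0.40, adjusted p = 1.4e-04). Both also fell against KO embryo, as the only 2 calls of the list (median −0.37; 4 calls without control embryo 1). In KD ESC Khdc3 fell with Dppa5a, from 41.8 and 46.9 to 16.6 and 18.9 FPKM (−1.27 ± 0.12, adjusted p = 0.0286). It was the 1 call of 6 tested, beside 2.59% of all genes higher and 3.64% lower, with a median of 0.02. In the controls, where Dppa5a was 1.07-fold apart, 9 of 12 were higher in embryos and 1 in ES cells, beside 12.6% and 40.8% of all genes. The median there was 3.01. Ooep, which lies next to Dppa5a on chromosome 9, was at 6.40 to 23.5 FPKM in every embryo library and 19.3 to 22.4 FPKM in ES cells and was called in none of the comparisons.

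Pluripotency factors and ES-cell-associated transcripts, the company in which the Dppa genes were first grouped, gave 0 calls of 29 by limma in KO embryo (4 higher and 1 lower at an unadjusted p under 0.05, 5 calls without control embryo 2), although 3 of the 4 Dppa genes were higher, and the median was 0.28. In KO arrest 6 rose and 4 fell against control embryo, 20.7% and 13.8% of the 29, beside 16.4% and 8.87% of all genes. The median was 0.93, and 4 rose and 5 fell both with TPM and with median-of-ratios scaling. Tdgf1, a co-receptor of Nodal, rose from 0 in both controls to 23.4, 97.0 and 96.7 FPKM (5.95 ± 0.80, limma adjusted p = 8.0e-04), Sox15 from 2.57 and 18.0 to 228, 310 and 343 FPKM (5.14 ± 0.73, adjusted p = 0.00103) and the F-box gene Fbxo15 from 84.8 and 78.6 to 399.7, 1120.2 and 887 FPKM (3.16 ± 0.46, adjusted p = 0.00112). Against KO embryo 4 rose and 0 fell (7 and 3 at an unadjusted p under 0.05, 2 calls without KO embryo 1, KO embryo 3 or KO arrest 3), these 3 and Nanog, with a median of 0.64, and with TPM 3 rose and 1 fell. Of all genes 4.93% rose and 3.65% fell there. In KD ESC 2 of 29 rose and 5 fell, beside 2.59% and 3.64% of all genes, with a median of −0.08 (5 and 5 with median-of-ratios scaling). Klf4 fell from 202 and 201 to 107 and 117 FPKM (−0.84 ± 0.08, adjusted p = 0.0285) and Pou5f1 from 356 and 353 to 256 and 246 FPKM (−0.50 ± 0.06, adjusted p = 0.0352), in the direction of Dppa2 and Dppa5a and opposite to Dppa3. In the controls 1 was higher in embryos and 25 in ES cells, beside 12.6% and 40.8% of all genes, with a median of −3.81. Dppa2, Dppa3 and Dppa4 were higher in embryos there.

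The genes beside the members were taken as the nearest 3 on each side, 18 in all. Between Dppa4 and Dppa2 the files list no other gene. Upstream of them stands Pvrl3, a cell adhesion gene whose end is 1786768 bases before Dppa4, and downstream are Gm5485 and Morc1, a silencer of transposons in the germline. Pvrl3 was at 71.8 and 34.6 FPKM in control embryo, 19.5, 60.1 and 29.5 in KO embryo and 10.8, 15.6 and 6.24 in KO arrest, and fell in KO arrest (−2.18 ± 0.61, limma adjusted p = 0.0243). Gm5485 was listed at 0 in both control embryos, at 0, 12.1 and 1.95 FPKM in KO embryo, at 6.46, 5.81 and 7.05 in KO arrest and at 0 in all ES cell libraries, and rose in KO arrest against control embryo (2.89 ± 0.93, limma adjusted p = 0.0432). Morc1 was at 0.465 to 9.59 FPKM in embryos and was not called. Pvrl3 was thus lower in KO arrest than in control embryo, where the pair was higher. In KO embryo, where the pair was also higher, Pvrl3 was not called (−0.60 ± 0.61, limma adjusted p = 0.613). Between the controls it was higher in embryos (1.64 ± 0.57, limma adjusted p = 0.0344), as the pair was. Gm5485, at far lower levels, was higher in KO arrest than in control embryo as the pair was.

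Dppa3 lies in a cluster with Nanog and Gdf3 that is known for joint expression in ES cells. In embryos these neighbours were low while Dppa3 was among the 5 highest genes. Gdf3, a TGF-beta family ligand 16353 bases before Dppa3, did not exceed 3.58 FPKM in any embryo library, and Nanog, 77297 bases after it, was at 0.392 and 1.46 FPKM in control embryo and at 6.40, 4.61 and 10.9 in KO arrest (2.10 ± 0.62, limma adjusted p = 0.0325). In control ESC, where Dppa3 was at 10.7 and 7.69 FPKM, Gdf3 was at 80.8 and 77.5 FPKM, Nanog at 354 and 294 and the glucose transporter gene Slc2a3 at 497 and 478. Dppa3 was thus the highest of these 4 genes in every embryo library and the lowest in every control ESC library. In KD ESC, where Dppa3 was higher, Slc2a3 fell to 302 and 316 FPKM (−0.66 ± 0.06, adjusted p = 0.0293), and Nanog, at 314 and 327 FPKM, was not called (adjusted p = 0.965).

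Dppa5a lies between the oocyte genes Omt2a and Omt2b on one side and Ooep on the other. Omt2b, 37434 bases away, was at 20739 and 27071 FPKM in control embryo, 10152, 7079 and 10260 in KO embryo and 648, 429 and 514 in KO arrest. It fell in KO embryo (−1.39 ± 0.33, limma adjusted p = 0.0359) and in KO arrest (−5.50 ± 0.33, adjusted p = 4.5e-05), as did Omt2a, with which it can share reads, while Dppa5a was higher in both groups than in the controls. In ES cells both Omt2 genes were at or near 0 and Dppa5a was at 356 to 698 FPKM. Of the 18 neighbours of the 4 members, 12 were tested in embryos. In KO embryo 0 rose and 2 fell, in KO arrest 2 rose and 3 fell against control embryo, and against KO embryo 1 rose and 2 fell. The shares of all genes were 4.86% and 1.50%, 16.4% and 8.87%, and 4.93% and 3.65%. In KD ESC 0 of 11 rose and 1 fell, beside 2.59% and 3.64% of all genes. Between the controls 3 of 15 were higher in embryos and 5 in ES cells, beside 12.6% and 40.8%.

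**Figure D5:**
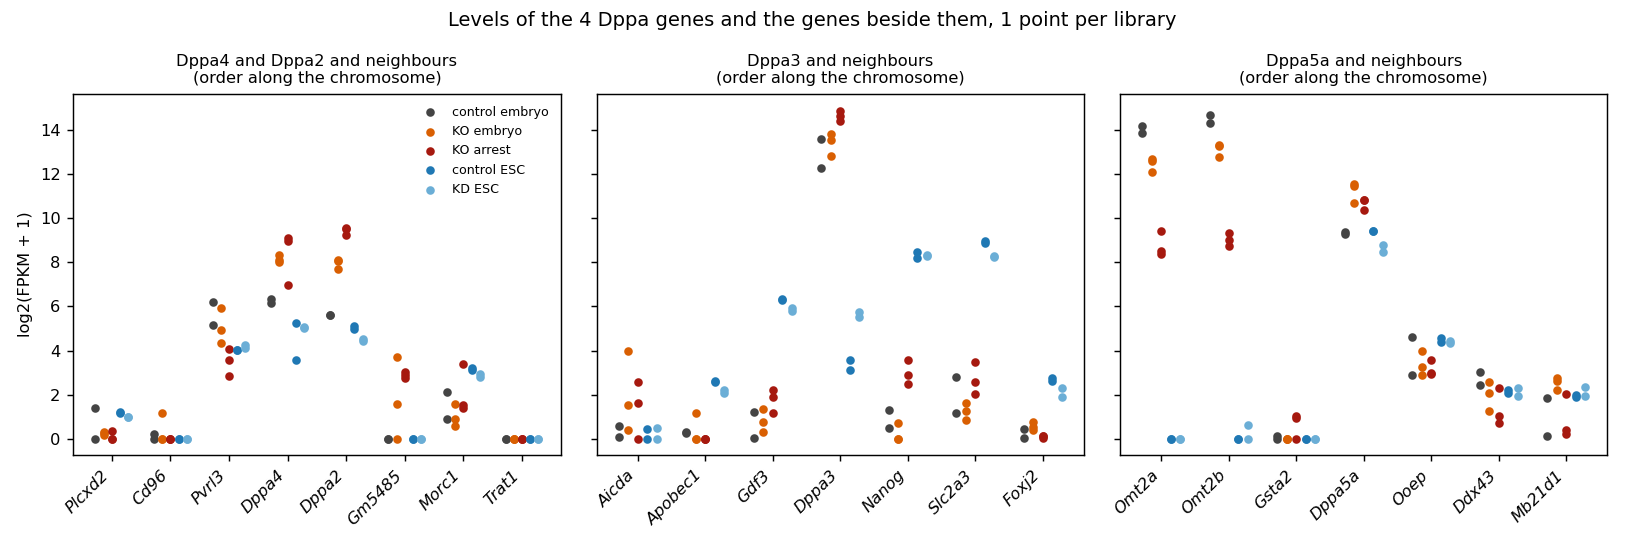
Levels as log2(FPKM + 1) of the 4 Dppa genes and the genes beside them, in their order along the chromosome but not to scale; a point is 1 library, coloured by group. Dppa3 is high in the 8 embryo libraries where its neighbours are low, and Dppa5a has no step down from control embryo to KO arrest as Omt2a and Omt2b have.

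The genes with the pattern most like each member were found by Pearson correlation of log2(FPKM + 1) over the 12 libraries, among the 14447 genes that passed the filter over all 12. The points share groups, library depth and cell source, so these values only describe. For Dppa2 they were Nhp2l1 (r = 0.993), which encodes a protein of the spliceosome and of small nucleolar particles, then Timm8a1 and Tomm20, subunits of mitochondrial protein import (0.990 and 0.987), the cystatin Cst7 (0.986) and the receptor Cd320 (0.986). Within the 8 embryo libraries r was 0.975 to 0.993 for these 5. Timm8a1 averaged 66.5 FPKM in control embryo, 369 in KO embryo, 1176 in KO arrest, 32.9 in control ESC and 25.7 in KD ESC, close to the 5 bands of Dppa2. For Dppa4 they were Nmd3 (0.970), an export factor of the large ribosomal subunit, Haus3, Hiat1, Map7d2 and Lbr, down to 0.943 (0.882 to 0.957 within the embryo libraries). For Dppa3 they were the mitochondrial pyruvate carrier subunit Mpc1 (0.992), the signal peptidase subunit Sec11a (0.989), Selk, Mfap5 and Hmgb3. Within the 8 embryo libraries r was 0.960 for Mpc1 but 0.540 for Sec11a and 0.782 to 0.788 for the other 3 genes, and all 5 were far lower in ES cells. For Dppa5a they were Lin52 (0.980), a subunit of the MuvB complex, Zdhhc7, Sarnp, Chka and Snupn (0.912 to 0.958 within the embryo libraries).

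Among themselves the members had lower r than those genes. Since those were picked as the highest of all genes, that difference was nearly fixed in advance. Dppa3 placed 265th by likeness to Dppa4, and Dppa5a 1248th by likeness to Dppa3, the first and last places over the pairs. Values with Dppa4 include its low libraries KO arrest 3 and control ESC 1. Over the 12 libraries r was 0.864 for Dppa2 with Dppa4, its known partner, which placed Dppa4 543rd of 14446 genes by likeness to Dppa2. It was 0.860 for Dppa2 with Dppa5a, 0.862 for Dppa4 with Dppa3 and lowest, 0.709, for Dppa3 with Dppa5a. Within the 8 embryo libraries the range was from 0.421, for Dppa3 with Dppa5a, to 0.812, for Dppa2 with Dppa3. No member was among the 5 genes most like another.

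Markers of other cells moved between the same groups, and their part in the values of the Dppa genes was not tested. The summed FPKM of 14 oocyte genes ran from 38551 to 53939 in control embryo, 12422 to 18372 in KO embryo and 945 to 1604 in KO arrest, opposite to the order of Dppa2, and did not exceed 2.32 in ES cells. Most of this sum in every embryo library came from Omt2a and Omt2b, which can share reads (15257 and 20739 FPKM in control embryo 1). Of 12 oocyte genes tested, 3 fell in KO embryo and 8 in KO arrest against control embryo, beside 1.50% and 8.87% of all genes. In control embryo 11 of the 14 were at 1 FPKM or more in both libraries, among them Bmp15, a growth factor of the oocyte, at 287 and 548 FPKM, and in KO embryo and in KO arrest 9 of 14 were. Zp1 and Figla were at 0 in every library of control embryo and KO embryo, and Zp1 and Zp2 in KO arrest. The sum of 10 ES cell markers was 70.2 to 125 FPKM in control embryo, 21.1 to 63.1 in KO embryo, 79.0 to 156 in KO arrest and 2476 to 2728 in ES cells, and all 10 were at 1 FPKM or more in every ES cell library. Single genes weighed on this sum in opposite ways. Tdgf1 was at 0 in both control embryos and at 97.0 FPKM in KO arrest 2. L1td1 was at 93.2 FPKM in control embryo 1 and at 7.16 FPKM in KO arrest 2. Of 14 trophectoderm and primitive endoderm markers, summed at 24.7 to 81.2 FPKM over the embryo libraries, Cdx2 was at 0 in all 8. Of 8 tested, 1 rose in KO embryo (Tfap2c) and 0 fell, beside 4.86% and 1.50% of all genes. The list median there was −0.85, against 0.31 for all genes. In KO arrest 2 rose (Gata6 and Tfap2c) and 0 fell, beside 16.4% and 8.87%, with a median of 0.11 against 0.45. Dab2 was lower in KO embryo without a call, at 4.04, 3.56 and 2.37 FPKM against 15.2 and 21.9 in control embryo.

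Blood and fibroblast genes were present in embryo libraries. The summed level of 9 blood genes was 78.1 to 195 FPKM in control embryo, 233 to 362 in KO embryo and 2.12 to 10.9 in KO arrest, and that of 10 fibroblast genes was 18.5 to 74.2, 64.6 to 101 and 0.298 to 3.28 FPKM. KO embryo was the highest of the 3 embryo groups in blood genes and KO arrest the lowest in both lists, with 6 of 9 blood and 7 of 10 fibroblast genes at 0 in all its libraries. The KO arrest libraries were also shallower than both control embryos. For 9 cumulus and granulosa cell genes the sum was 16.1 to 17.1 in control embryo, 1.49 to 5.95 in KO embryo and 0 to 2.82 in KO arrest. Most of the control embryo sum came from 1 gene, Tnfaip6, with a mean of 14.5 ± 3.57 FPKM (SD, n = 2) there. Ptgs2, Amh and Fshr were at 0 in both control embryos, and 2 of the 9 genes were tested in embryos. The presence of cumulus cells was not tested. In ES cells blood genes summed to 14.9 to 15.3 FPKM in the controls and 15.3 to 19.6 with the knock down, fibroblast genes to 243 to 251 and 169 to 172, and cumulus genes to 33.1 to 36.4 and 21.0 to 22.2. The blood sum there came from Cd68 (11.0 to 15.7 FPKM) and Alas2 (3.42 to 4.36 FPKM) alone. The other 7 of the 9 blood genes were at 0 in every ES cell library. Of the fibroblast genes, Vim alone was at 173 and 164 FPKM in control ESC and 114 and 123 in KD ESC, while Lum was at 0. Dppa2, Dppa3 and Dppa4 had their highest means in KO arrest, where the blood and fibroblast lists were lowest, and Dppa5a had its highest mean in KO embryo, where blood genes were highest.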

How the data were processed

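RNA was measured in 12 Smart-seq2 libraries. The submitters' processing notes name STAR (as 0.6.0), StringTie, DESeq2 and the build mm9, with no roles, settings, annotation or read strand. The authors deposited FPKM, TPM and coverage per gene, without counts. The deposited TPM values are FPKM times 1 factor per library (1.78 to 2.93) and served as an alternative. The deposited coverage signal gave relative depth only, so no counting interval could be given. Unnamed rows (227 to 339 in a library, holding 0.549% to 1.19% of FPKM) were left out.

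limma 3.58.1 in R 4.3.3 was fitted, with the variance trend, to log2(FPKM + 1) of genes with at least 1 FPKM in at least 2 fitted libraries: 8 embryo libraries (5 residual degrees of freedom), 4 ES cell libraries (2) and, for embryo against ES cell controls, all 12. The script was tested on simulated data. Other tables used Python 3.11.15, pandas 2.3.3, numpy 2.4.6 and matplotlib 3.10.9. The members, the 6 gene lists and the 6 marker lists were chosen with earlier results of these data known. Named are the members, the 4 called genes of a list with the smallest p, the nearest 3 genes on each side, the 5 genes most alike (systematic names left out of both rankings) and Dcaf11. Uhrf1, Dnmt1, Tet3, Dux, Zp1, Zp2, Figla and Cdx2 were named after their values were seen. In the tables of RefSeq (GRCm38.p6) Dppa5b, Dppa5c and Dppa3-ps are pseudogenes of members, none is a symbol here, and reads of such copies may be counted with the members. None of the 4 members was matched in the RefSeq table of promoters. Alternatives were a pseudocount of 0.1, no filter, TPM, median-of-ratios scaling, only the compared groups, a block for replicate number, and leaving out single libraries.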

Additional observations from a re-analysis of the deposited data

Results flagged for a closer look

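Dppa2 and Dppa5a lay on opposite sides of their controls in embryos and in ES cells. Every KO embryo and KO arrest library was above both control embryos in both genes, and both KD ESC libraries were below both control ESC libraries. For Dppa2 the log2 fold change with the knock out minus that with the knock down was 2.90 for KO embryo and 4.38 for KO arrest. For Dppa5a the same differences were 2.71 and 2.14. These differences were not tested, since the genes were chosen with the contrasts known, and the KO embryo and KO arrest values share their controls. Knock out against knock down, embryo against ES cell and C57BL/6 against 129Sv cannot be told apart in them.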

How the results depend on the processing

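None of the 20 member fold changes left its direction with a pseudocount of 0.1, without the filter or with the replicate number as a block, nor did any of the 16 refitted with the compared groups only (the KD ESC fit holds just those groups). With median-of-ratios scaling Dppa3 in KO embryo against control embryo turned to −0.23 and Dppa5a in control embryo against control ESC to 0.92. Others moved by more than the replicate SD: Dppa2 to 1.65, 3.09, −0.48 and 1.57 in KO embryo, KO arrest, KD ESC and control embryo against their controls or control ESC, Dppa5a to 1.21 and 0.60 in KO embryo and KO arrest, Dppa3 to 0.99 in KO arrest and 10.58 in the controls, and Dppa4 to 2.84 in the controls. With TPM Dppa2 was 3.34 and Dppa5a 0.83 in KO arrest against control embryo, and against KO embryo Dppa2 was 1.04, Dppa5a −1.01 and Dppa4 turned to −0.26. These scalings moved the median of all genes from 0.31 to −0.04 (median of ratios, KO embryo), from 0.45 to 0.22 and 0.03 (TPM and median of ratios, KO arrest), from 0.07 to −0.27 (TPM, KO arrest against KO embryo) and from −1.01 to −1.40 and −0.45 (TPM and median of ratios, controls).

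With 1 library left out, Dppa3 ranged from −0.19 to 1.13 in KO embryo, 1.06 to 2.39 in KO arrest and 8.94 to 10.26 between the controls. Dppa4 ranged from −0.20 to 0.88 in KO arrest against KO embryo (−0.20 and −0.12 without KO arrest 1 and 2), −0.20 to 1.51 in KD ESC and 0.99 to 2.70 between the controls. A group left with 1 library is taken to vary as the rest do.

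The number of genes called by limma was 750, 2976, 1012, 764 and 7721 for KO embryo and KO arrest against control embryo, KO arrest against KO embryo, KD ESC and the controls. Without the filter the first 4 were 316, 1848, 519 and 24. In fits of only the compared groups KO embryo had 228 and KO arrest against KO embryo 2030. Ranges with 1 library left out were 87 to 1817, 1983 to 3636, 285 to 2023, 13 to 686 and 5682 to 8651. Scaling by the median of ratios turned 573 higher and 177 lower genes in KO embryo into 249 and 451, 1930 and 1046 in KO arrest into 1300 and 1588 (1349 and 1317 with TPM), 318 and 446 in KD ESC into 431 and 351 and 1820 and 5901 between the controls into 2636 and 4521. With TPM 581 and 431 in KO arrest against KO embryo became 283 and 683. The cause of these changes was not tested. Calls of the lists named in the report moved with the same settings, and in KO embryo and in KD ESC each of the 6 had 0 or 1 calls without the filter and with the block.

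The replicate numbers did not pair the libraries: deviations of same-numbered KO embryo and KO arrest libraries correlated at −0.05, −0.02 and 0.02. With the replicate block the counts of calls were 76, 1965, 550 and 26 in the first 4 comparisons.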
